A study of Mus musculus with 22 samples.

Results

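Trpv5, Trpv6, Calb1, S100g, Slc8a1, Atp2b1 and Casr are 7 genes for moving calcium through the kidney tubule and sensing it, and their transcripts were followed in the kidneys of 22 mice. The genes were chosen by symbol for their known roles, and the 7 are set against the 32858 genes with a count, of which 17131 had enough counts to be tested. All 7 were among those tested, and their lowest value in a kidney was 41 counts, for Trpv6 in the KW6002 group.

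In the distal convoluted and connecting tubule, calcium is reabsorbed through the cells rather than between them. It enters from the urine through the channels TRPV5 and TRPV6, is carried across the cell by the calcium-binding proteins calbindin-D28k (Calb1) and calbindin-D9k (S100g), and leaves on the blood side through the sodium-calcium exchanger NCX1 (Slc8a1) and the calcium pump PMCA1 (Atp2b1). The calcium-sensing receptor (Casr) is best known in the kidney for the thick ascending limb, where calcium passes between the cells, and parathyroid hormone and active vitamin D raise distal reabsorption.

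All mice were male C57Bl6/J, 8 to 10 weeks of age, and each gave 1 kidney library of polyA RNA. The control group (n = 5) carries the label vehicle, the carrier of DMSO, cremophor and saline in which KW6002 was dissolved. The KW6002 group (n = 6) is labelled with istradefylline, an antagonist of an adenosine receptor given daily into the peritoneum at 3 mg/kg from day -5 to day 7. The cisplatin group (n = 5) had 6 daily injections of the platinum drug cisplatin at 3 mg/kg and was killed 72 h after the last, and the co-treated group (n = 6) had cisplatin and KW6002. The labels do not say whether the mice given cisplatin alone also had the carrier. Mouse numbers in the 300s belong to 3 of the 5 vehicle and 3 of the 6 KW6002 mice, and all other mice are numbered in the 500s, so values for the 500s alone are given beside the pooled ones.

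Total counts per kidney ran from 26471762 to 33168134 in the vehicle group and from 27461723 to 40510754 in the KW6002 group. They ran from 32807796 to 37562014 after cisplatin and from 28142763 to 34726619 after co-treatment. Levels below are CPM, which are counts set to a common library total, after TMM scaling, which sets libraries to the same level over most genes.

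The tissue label was checked against marker genes. All 6 proximal tubule markers and all 5 thick ascending limb markers were detected, with summed levels in the vehicle kidneys of 14583 ± 410.3 CPM (SD, n = 5) and 8904 ± 1843 CPM, led by Slc34a1 and Umod. The 5 podocyte markers summed to 530.5 ± 39.6 CPM. The parathyroid genes Pth and Gcm2 were not among the genes with a count. Co-treated replicate 6 stood apart in 5 adrenal markers, with a summed level of 83.4 CPM where the other 21 kidneys lay between 1.33 and 3.13 CPM. Star was the most abundant of them in each group's mean. Fat markers varied widely within groups, from 140.3 to 1459 CPM in the vehicle kidneys and from 10.1 to 437 CPM in the co-treated ones, led by Car3. Their part in the results was not tested, and each difference with the co-treated group was also fitted without replicate 6.

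Cisplatin against vehicle asks what the platinum drug did to these transcripts. After cisplatin Casr, Calb1, Slc8a1 and Trpv5 lay far below vehicle in every kidney, S100g and Atp2b1 lay slightly lower, and Trpv6 alone was higher, in 5 of 5 kidneys, although scaled to 4 distal convoluted tubule markers all 7 were higher (relative to the markers other than Pvalb Casr was lower, and Calb1 and Slc8a1 lay within their spread of vehicle), as were 99.5% of the 16704 genes at the stricter limit given below. In edgeR's quasi-likelihood test at an adjusted p below 0.05, 6 of the 7 were lower, where 35.9% of all genes tested were lower, and 1 of 7 was higher, where 34.6% were higher. With libraries scaled by size alone 4 of the 7 were lower, as S100g (-0.12) and Atp2b1 (-0.055) no longer passed. A stricter limit asks for a log2 fold change past 1 or -1 together with an adjusted p under 0.01, and 5 of the 7 met it, against 24.1% of all genes tested. The median log2 fold change of the 7 was -1.64, and that of all genes tested was -0.01. In whole-kidney RNA fewer cells of a type and less RNA per cell cannot be told apart.

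Cisplatin plus KW6002 against cisplatin asks what KW6002 did in mice given cisplatin. Trpv5, Calb1, Casr and Slc8a1 were higher in 6 of 6 co-treated kidneys than in any cisplatin kidney, by 2.57 to 3.16 times in the group means. Trpv6 did not pass the test (0.08), Atp2b1 was slightly higher, and S100g was lower. At an adjusted p below 0.05, 5 of the 7 were higher, where 28.6% of all genes tested were, and 1 of 7 was lower, where 27.2% were; with scaling to the distal convoluted tubule markers Atp2b1 turned lower (-0.59) and so did Trpv6 (-0.82, adjusted p = 6.4e-05). The same scaling gave smaller values for the 4 that were higher, at 0.71 for Calb1, 0.78 for Trpv5, 0.46 for Slc8a1 and 0.61 for Casr. At the stricter limit 4 of 7 passed, against 10.3% of all genes tested. The median of the 7 was 1.36, and that of all genes was 0.01.

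Cisplatin plus KW6002 against vehicle asks what difference was left with co-treatment; it shares its control kidneys with the cisplatin comparison. Trpv5 and Atp2b1 did not pass the test, Calb1, S100g, Slc8a1 and Casr were lower, and Trpv6 was higher, although scaled to 4 distal convoluted tubule markers all 7 were higher, as were 99.6% of the 16636 genes past the stricter limit. Relative to the markers other than Pvalb, Casr was 0.29 above vehicle, within its spread (SD 0.36). The other members were above vehicle by 0.77 (Slc8a1) to 3.998 (Trpv6), each by less than with the 4 markers. By the test with TMM scaling 4 of 7 were lower, where 29.9% of all genes tested were lower, and 1 of 7 was higher, where 29.8% were higher. At the stricter limit 3 of 7 passed, against 13.4% of all genes tested.

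KW6002 against vehicle asks what the antagonist did on its own. By edgeR 0 of the 7 were higher at an adjusted p below 0.05, where 0.0175% of all genes tested were, and 0 were lower, where 0% were; at the stricter limit 0% passed. At an unadjusted p below 0.05, 1 of the 7 (S100g) and 1930 of all genes were past it, and DESeq2 gave 100 genes at an adjusted p below 0.05 and 4 past the stricter limit, none of them among the 7. The adjusted p of the 7 ran from 0.419 to 0.891. The stricter count became 2 without vehicle replicate 3, 1 without vehicle replicate 5, 4 with the label series as a covariate and 1 in the mice of the 500s. Scaled to the 4 distal convoluted tubule markers it was 6.

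Whether the KW6002 effect differed with and without cisplatin was tested by the difference of both effects. It was positive for 5 of the 7 (Calb1, Trpv5, Slc8a1, Casr and Atp2b1), where 22.8% of all genes tested were positive, and negative for 0, where 19.9% were negative, and 4 of 7 passed the stricter limit, against 8.58%. With scaling to the distal convoluted tubule markers 2 were positive and 3 negative, where the median of all genes was -1.12 and 1.62% of the 9754 genes past the stricter limit were positive. With TMM scaling the difference was 0.36 for Trpv6 (SE 0.18, adjusted p = 0.11) and -0.12 for S100g (SE 0.18, adjusted p = 0.615), so neither passed. Scaled to the markers both were negative and passed, at -0.76 for Trpv6 (adjusted p = 0.0095) and -1.22 for S100g (adjusted p = 2.2e-05).

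**Figure D1:**
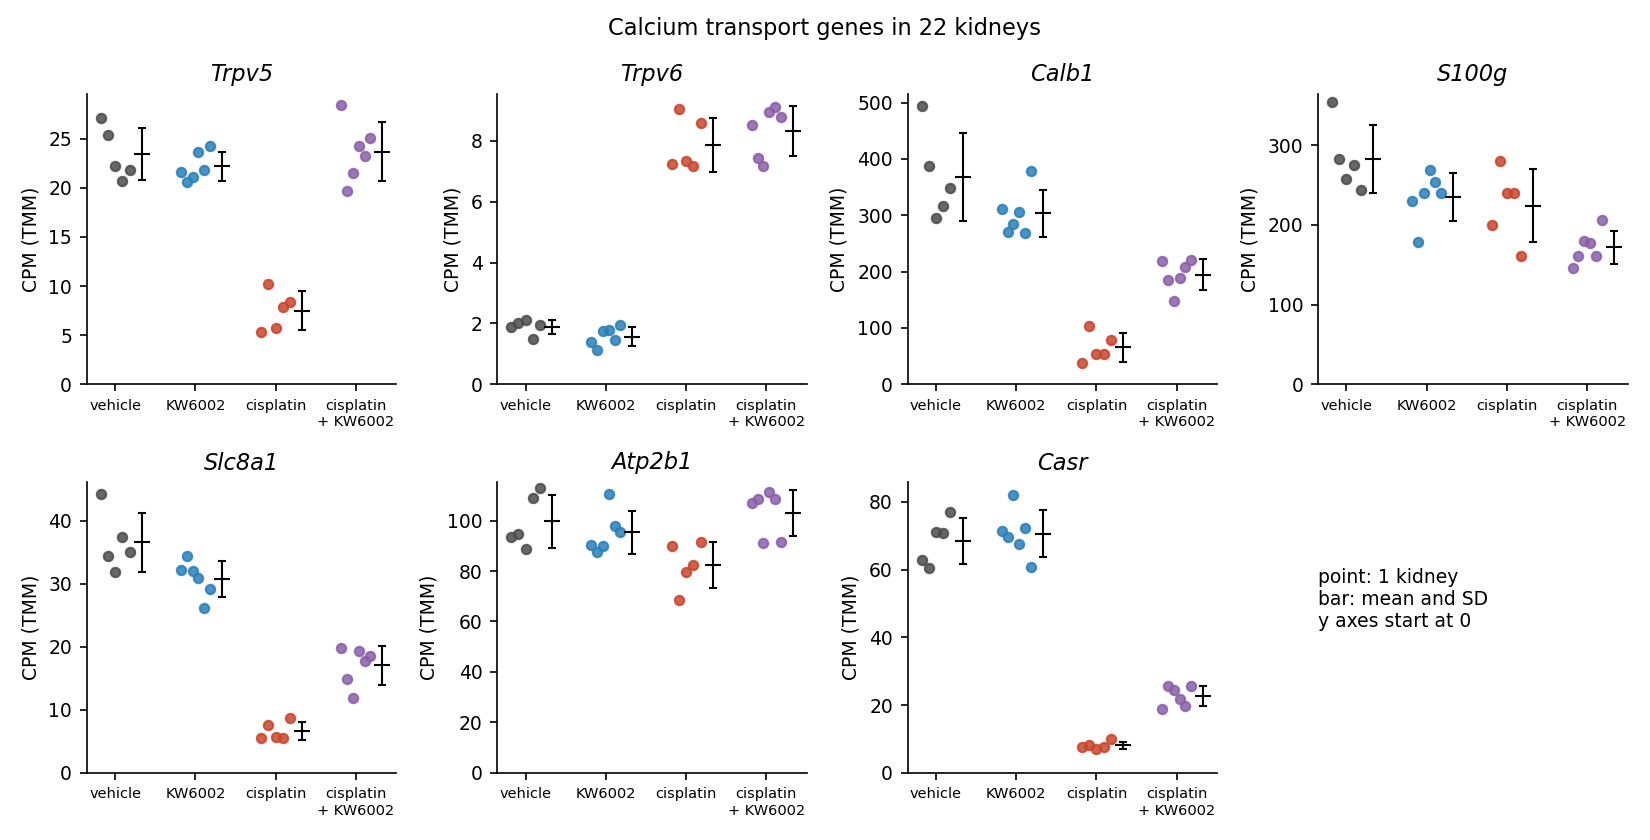
Each point is 1 kidney and each bar the mean and SD of its group, in CPM after TMM scaling, for the 7 genes; every y axis starts at 0. Cisplatin kidneys lie below all vehicle kidneys for Trpv5, Calb1, Slc8a1 and Casr and above them for Trpv6. For Trpv6 the cisplatin mean is 7.88 CPM and the vehicle mean 1.89 CPM. Scaled to the 4 distal convoluted tubule markers all 7 are higher after cisplatin, as are 99.5% of the 16704 genes past the stricter limit. Without Pvalb among the markers Casr is lower.

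The entry channels went apart. Trpv5 encodes the calcium channel of the distal tubule's urine-facing membrane. In the vehicle kidneys it stood at 27.1, 25.3, 22.2, 20.7 and 21.8 CPM, and in the cisplatin kidneys at 5.33, 10.2, 5.70, 7.89 and 8.35 CPM. The KW6002 kidneys had a lowest value of 20.6, a median of 21.7 and a highest of 24.3 CPM, and the co-treated kidneys 19.7, 23.7 and 28.4 CPM. Cisplatin kidneys were thus low without overlap, and the other 3 groups lay in the same range. Against vehicle, Trpv5 fell by 1.64 on the log2 scale after cisplatin (SE 0.134, adjusted p = 2.2e-10), to 31.9% of the vehicle mean, lower in 5 of 5 kidneys. Co-treatment raised it by 1.66 over cisplatin (SE 0.13, adjusted p = 5.8e-10), and the value against vehicle was 0.02 (SE 0.122, adjusted p = 0.924). That small value lay between -0.04 and 0.07 with any 1 library left out and was below 0 without vehicle replicate 3, 4 or 5 or co-treated replicate 1 or 6. The difference of the KW6002 effects was 1.74 for Trpv5 (SE 0.177, adjusted p = 9.7e-08), and 0.63 (adjusted p = 0.00929) with scaling to the distal convoluted tubule markers.

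Trpv6 encodes the closely related channel that is best known from the intestine. It was the least abundant member in vehicle kidneys, at 1.88, 2.00, 2.12, 1.48 and 1.95 CPM, from 42 to 63 counts. After cisplatin it stood at 7.24, 9.06, 7.32, 7.17 and 8.60 CPM, from 268 to 361 counts. The KW6002 kidneys ran from 1.12 over a median of 1.60 to 1.95 CPM, and the co-treated kidneys from 7.17 over 8.66 to 9.11 CPM. Every kidney that had cisplatin, with or without KW6002, was thus high, and every kidney without it was low. Trpv6 rose by 2.06 on the log2 scale after cisplatin (SE 0.131, adjusted p = 3.2e-12), to 4.18 times the vehicle mean. Co-treatment against cisplatin gave 0.08 (SE 0.114, adjusted p = 0.565) and, with scaling to the distal convoluted tubule markers, -0.82. Against vehicle the co-treated kidneys were 2.14 higher (SE 0.129, adjusted p = 5.4e-12).

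Per kilobase of exon, Trpv5 exceeded Trpv6 by 15.2 ± 2.08 times (SD, n = 5) in the vehicle kidneys and by 17.6 ± 2.91 times (n = 6) in the KW6002 kidneys. After cisplatin the ratio was 1.14 ± 0.217, with kidneys from 0.892 to 1.36, so that the channels stood near the same level, with Trpv6 slightly above Trpv5 if the longest transcript gives the length (2.70 and 2.31 CPM per kb). With co-treatment it was 3.45 ± 0.346, with kidneys from 3.09 to 4.05, between and without overlap with the other groups. A ratio of transcripts of the same kidney does not depend on how libraries are scaled.

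**Figure D2:**
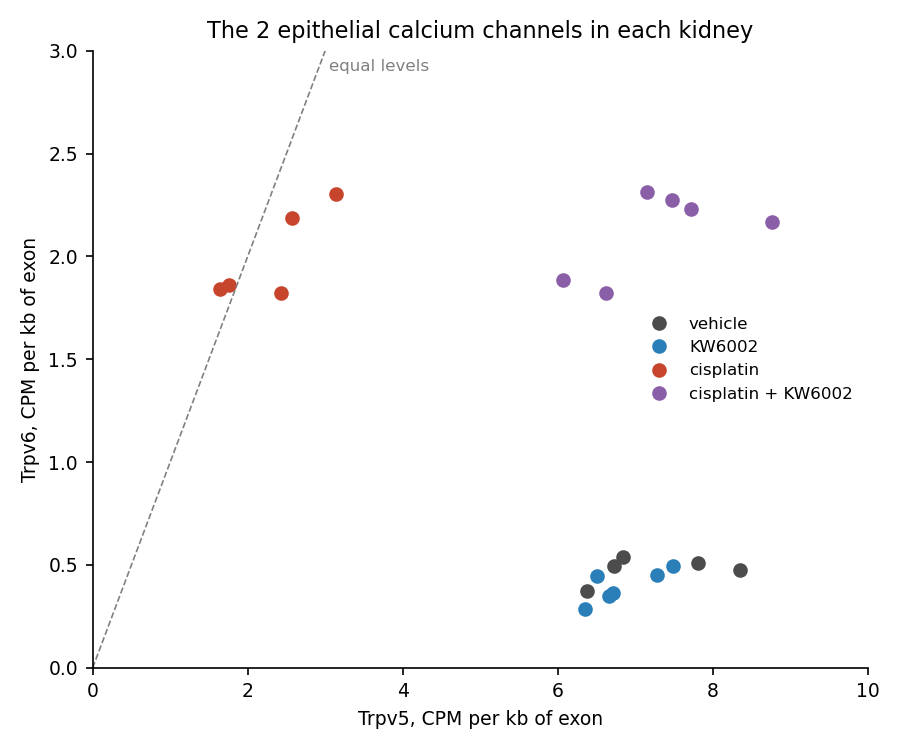
Each point is 1 kidney, with the level of Trpv5 on the x axis and of Trpv6 on the y axis, both in CPM per kilobase of exon; the dashed line marks equal levels. Cisplatin kidneys lie near the line, with Trpv5 over Trpv6 from 0.892 to 1.36; co-treated kidneys lie to the right, with the ratio from 3.09 to 4.05; vehicle kidneys lie at the bottom, at 12.7 to 17.5.

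The promoters of the channels, and of 3 more members, are shown because Trpv5 and Trpv6 are on the same strand of chromosome 6 and moved apart, while Trpv5, Slc8a1 and Casr fell together. Capitals mark AGGTCA (letters known from nuclear receptor sites) or TATAAA on either strand. The windows are from RefSeq (build GRCm38.p6, 250 bases before to 50 after the start, minus strand): Trpv5 chr6:41680674-41680973, Trpv6 chr6:41636356-41636655, S100g chrX:162964550-162964849, Slc8a1 chr17:81738338-81738637 and Casr chr16:36562085-36562384.
Trpv5: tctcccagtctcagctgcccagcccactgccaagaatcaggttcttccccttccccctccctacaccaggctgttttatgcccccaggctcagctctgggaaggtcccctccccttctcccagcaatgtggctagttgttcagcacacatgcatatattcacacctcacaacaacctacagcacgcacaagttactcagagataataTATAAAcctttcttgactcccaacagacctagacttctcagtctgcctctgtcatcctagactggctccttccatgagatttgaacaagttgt
Trpv6: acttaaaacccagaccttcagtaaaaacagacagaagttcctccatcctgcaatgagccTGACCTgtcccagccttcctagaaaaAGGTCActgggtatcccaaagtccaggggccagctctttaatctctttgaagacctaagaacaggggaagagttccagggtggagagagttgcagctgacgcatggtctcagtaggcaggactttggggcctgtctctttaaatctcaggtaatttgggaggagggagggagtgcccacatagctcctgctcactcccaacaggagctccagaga
S100g: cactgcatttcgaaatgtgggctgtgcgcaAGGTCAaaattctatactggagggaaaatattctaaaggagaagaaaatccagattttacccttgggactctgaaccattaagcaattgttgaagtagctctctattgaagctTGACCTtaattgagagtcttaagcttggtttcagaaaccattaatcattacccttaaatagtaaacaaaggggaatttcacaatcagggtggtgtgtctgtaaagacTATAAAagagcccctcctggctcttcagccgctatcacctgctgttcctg
Slc8a1: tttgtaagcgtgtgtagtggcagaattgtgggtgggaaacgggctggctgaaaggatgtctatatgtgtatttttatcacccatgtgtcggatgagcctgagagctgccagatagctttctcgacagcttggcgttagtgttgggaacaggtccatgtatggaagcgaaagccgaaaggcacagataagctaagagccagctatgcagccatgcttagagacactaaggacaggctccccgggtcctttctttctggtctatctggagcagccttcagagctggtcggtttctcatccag
Casr: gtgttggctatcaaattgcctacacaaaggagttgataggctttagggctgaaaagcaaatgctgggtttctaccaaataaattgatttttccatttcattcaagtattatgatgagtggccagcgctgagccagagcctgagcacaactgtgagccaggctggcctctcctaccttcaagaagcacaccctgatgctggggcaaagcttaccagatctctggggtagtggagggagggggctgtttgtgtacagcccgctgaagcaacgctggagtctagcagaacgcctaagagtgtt
AGGTCA was found 2 times each in the Trpv6 and S100g windows, and in 16.3% of 32851 promoters of the same length. TATAAA was found 1 time each in the Trpv5 and S100g windows, and in 13.6% of promoters. GTTAAT (letters known from HNF1 sites) was in none of the 7 windows of 6 members, the Atp2b1 gene having 2 windows, and in 7.10% of promoters; the Slc8a1, Casr and Atp2b1 windows held none of the 3 motifs. Of the 7 genes 6 were matched, and Calb1 was not. A match of letters is a description and not a binding site.

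The calcium-binding proteins also parted. Calb1, the buffer that ferries calcium across the distal tubule cell, stood at 493.3, 387, 295.0, 317 and 348 CPM in the vehicle kidneys. The cisplatin kidneys had 37.9, 104, 53.7, 54.4 and 78.9 CPM. From lowest over median to highest, the KW6002 kidneys had 269, 295 and 379 CPM, and the co-treated kidneys 148, 198 and 220.4 CPM. Cisplatin kidneys were lowest, co-treated kidneys lay between, and neither overlapped with vehicle. Calb1 fell by 2.48 on the log2 scale after cisplatin (SE 0.203, adjusted p = 2.2e-10), to 17.9% of the vehicle mean. Co-treatment was 1.57 above cisplatin (SE 0.191, adjusted p = 4.1e-07) and 0.92 below vehicle (log2 fold change -0.92, SE 0.183, adjusted p = 0.00017), that is 52.9% of the vehicle mean. The difference of the KW6002 effects was 1.85 (SE 0.262, adjusted p = 7.5e-06), and 0.76 (adjusted p = 0.0031) with scaling to the distal convoluted tubule markers.

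S100g encodes the smaller calbindin. Its vehicle kidneys stood at 354.6, 282, 258, 276 and 243 CPM, and its cisplatin kidneys at 200.2, 279.9, 240.5, 240.4 and 160.5 CPM. The KW6002 kidneys ran from 179 over 239.9 to 268 CPM, and the co-treated kidneys from 147 over 169 to 206 CPM. Cisplatin and vehicle overlapped, with 4 of 5 cisplatin kidneys below every vehicle kidney, and co-treated kidneys lay below all vehicle kidneys. The value after cisplatin was -0.33 (SE 0.129, adjusted p = 0.0254), 79.3% of the vehicle mean, and it did not hold up: it was -0.12 (adjusted p = 0.397) with scaling by library size alone and -0.22 (adjusted p = 0.233) in the mice of the 500s. It also missed the limit without vehicle replicate 1 (-0.24), cisplatin replicate 1 (-0.30) or cisplatin replicate 5 (-0.24), and with only the compared groups in the fit (-0.33, adjusted p = 0.0547). Co-treatment against cisplatin gave -0.39 (SE 0.124, adjusted p = 0.0112), which missed the limit without cisplatin replicate 2 (-0.29, adjusted p = 0.0528) and was -1.26 (adjusted p = 1.3e-08) with scaling to the distal convoluted tubule markers. Against vehicle S100g was lower after co-treatment by more, at -0.72 (SE 0.124, adjusted p = 3.1e-05).

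Slc8a1, the exchanger that trades calcium for sodium on the blood side, stood at 44.2, 34.3, 31.8, 37.5 and 35.1 CPM in the vehicle kidneys. After cisplatin the kidneys had 5.59, 7.56, 5.73, 5.56 and 8.75 CPM. The KW6002 kidneys ran from 26.1 over 31.4 to 34.5 CPM and the co-treated kidneys from 11.9 over 18.2 to 19.8 CPM. Cisplatin kidneys were low, co-treated kidneys were between, and these groups overlapped neither with each other nor with vehicle. Slc8a1 fell by 2.46 after cisplatin (log2, SE 0.141, adjusted p = 4.8e-13), to 18.1% of the vehicle mean. It was 1.36 higher with co-treatment than with cisplatin (SE 0.135, adjusted p = 1.9e-08), and -1.10 against vehicle (SE 0.125, adjusted p = 1.2e-07). Its difference of KW6002 effects was 1.61 (SE 0.182, adjusted p = 4.1e-07), but 0.46 (adjusted p = 0.0802) with scaling to the distal convoluted tubule markers.

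Atp2b1, the calcium pump found in many cell types, had a small fitted value after cisplatin. Its level ran from 88.8 to 113.1 CPM in the vehicle kidneys and from 68.7 to 91.4 CPM in the cisplatin kidneys. KW6002 kidneys lay between 87.5 and 110.7 CPM, and co-treated kidneys between 91.0 and 111.2 CPM. The groups overlapped, with 3 of 5 cisplatin kidneys below every vehicle kidney and 5 of 6 co-treated kidneys above every cisplatin kidney. The value after cisplatin was -0.27 (SE 0.0849, adjusted p = 0.0064), -0.43 in the 500s, but -0.055 (adjusted p = 0.589) with scaling by library size alone. Co-treatment gave 0.32 over cisplatin (SE 0.0815, adjusted p = 0.00197) and 0.05 against vehicle (SE 0.0812, adjusted p = 0.646); the latter was 0.21 (adjusted p = 0.0388) by library size alone and -0.11 (adjusted p = 0.396) in the 500s. The difference of the KW6002 effects was 0.39 (SE 0.115, adjusted p = 0.00944), but -0.75 (adjusted p = 0.0042) with scaling to the distal convoluted tubule markers. That scaling also turned co-treatment against cisplatin to -0.59 (adjusted p = 0.0014).

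Casr, the receptor that senses extracellular calcium, had the largest fold change of the 7 after cisplatin with TMM scaling. Vehicle kidneys stood at 62.7, 60.6, 71.1, 70.9 and 77.1 CPM, and cisplatin kidneys at 7.61, 8.16, 7.14, 7.59 and 9.91 CPM. The KW6002 kidneys ran from 60.7 over 70.6 to 82.1 CPM, and the co-treated kidneys from 18.7 over 23.2 to 25.6 CPM. The cisplatin kidneys were closely grouped at the bottom, and the co-treated kidneys lay between them and vehicle without overlap. After cisplatin Casr fell by 3.08 on the log2 scale (SE 0.106, adjusted p = 1.6e-16), to 11.8% of the vehicle mean. With co-treatment it was 1.49 above cisplatin (SE 0.101, adjusted p = 7.5e-11) and at -1.60 against vehicle (SE 0.0933, adjusted p = 3.6e-12), 33.04% of the vehicle mean. Its KW6002 effects differed by 1.44 (SE 0.135, adjusted p = 3.2e-08), and by 0.32 (adjusted p = 0.239) with scaling to the distal convoluted tubule markers.

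KW6002 alone gave log2 fold changes of -0.28 for Calb1 (SE 0.183), -0.27 for S100g (SE 0.124), -0.28 for Trpv6 (SE 0.137) and -0.25 for Slc8a1 (SE 0.124). Those of Trpv5, Atp2b1 and Casr were -0.08 (SE 0.123), -0.07 (SE 0.0812) and 0.05 (SE 0.0912). In the 500s, with 2 vehicle and 3 KW6002 kidneys, the values were -0.07 for Calb1, -0.03 for S100g, -0.34 for Slc8a1, 0.13 for Trpv5, -0.0018 for Trpv6, -0.13 for Atp2b1 and -0.15 for Casr. The value of Casr was -0.00 without KW6002 replicate 3. None of these passed the test in edgeR; a miss of the limit does not show equal levels.

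**Figure D3:**
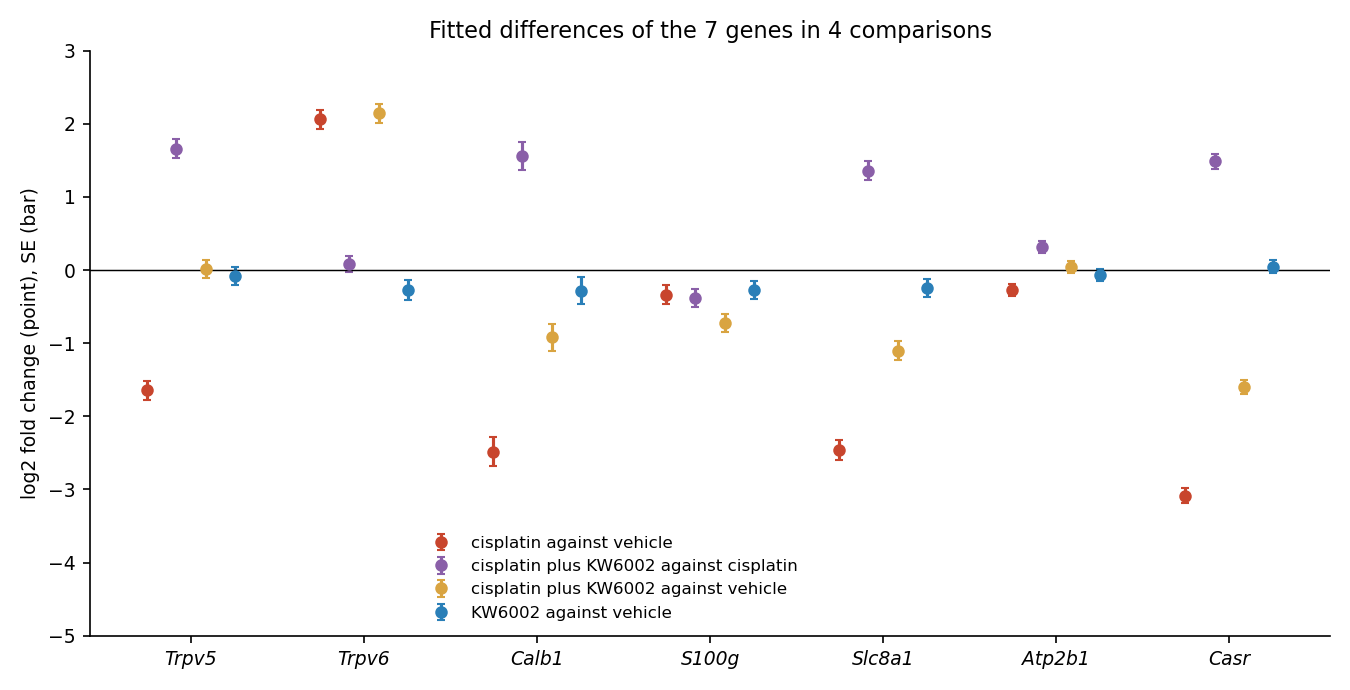
Points are fitted log2 fold changes and bars their SE for the 7 genes in 4 comparisons of the groups (n = 5 or 6). After cisplatin Casr (-3.08), Calb1 (-2.48), Slc8a1 (-2.46) and Trpv5 (-1.64) are lower and Trpv6 is higher (2.06). Scaled to 4 distal convoluted tubule markers all 7 are higher, as are 99.5% of the 16704 genes past the stricter limit. Without Pvalb among the markers Casr is lower. With co-treatment these 4 lower genes lie 1.36 to 1.66 above cisplatin, and 0.46 to 0.78 with scaling to the 4 markers.

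In the mice of the 500s alone the cisplatin values were -2.34 for Calb1, -1.51 for Trpv5, 2.19 for Trpv6, -2.46 for Slc8a1, -0.43 for Atp2b1 and -3.20 for Casr. Only 2 vehicle kidneys are in that set. Co-treatment against vehicle gave -0.77 for Calb1, -0.60 for S100g, 0.15 for Trpv5, 2.27 for Trpv6, -1.09 for Slc8a1 and -1.71 for Casr. The difference of the KW6002 effects in the 500s was 0.09 for Trpv6 and -0.35 for S100g, and neither passed the test there. All mice of the cisplatin and co-treated groups are in the 500s, so their comparison lies within that series. Without co-treated replicate 6, the kidney with adrenal transcripts, co-treatment against cisplatin gave 1.52 for Calb1, 1.64 for Trpv5, 1.33 for Slc8a1, 1.44 for Casr, 0.35 for Atp2b1 and -0.45 for S100g.

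When libraries were scaled by size alone, the median of all genes moved by 0.20 after cisplatin and by 0.16 after co-treatment, both against vehicle. Of the genes past the stricter limit after cisplatin, 62.6% of 4350 were then higher, in place of 50.01% of 4137 with TMM. After co-treatment against vehicle 56.5% of 2347 were higher, in place of 43.4% of 2300.0. The 4 members that fell most and Trpv6 kept their direction after cisplatin under that scaling, with Casr at -2.87, Calb1 at -2.28, Slc8a1 at -2.25, Trpv5 at -1.43 and Trpv6 at 2.28.

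Markers of the distal tubule, where the transport described at the start takes place, moved too. All 4 distal convoluted tubule markers (Slc12a3, Pvalb, Trpm6 and Klhl3) were lower after cisplatin, with a median log2 fold change of -3.23, and 2 of 4 were higher with co-treatment than with cisplatin. Their summed level was 1734, 1726, 1670.3, 1743 and 1746 CPM in the vehicle kidneys and 66.8, 114, 93.8, 107 and 112 CPM in the cisplatin kidneys. KW6002 kidneys ran from 1381 over 1602 to 1922 CPM and co-treated kidneys from 184 over 265 to 412 CPM. Slc12a3, the thiazide-sensitive salt transporter, was the most abundant, and it fell by 4.59 on the log2 scale after cisplatin, and was 1.88 above cisplatin with co-treatment. Pvalb had between 485 and 632 counts in the vehicle kidneys and between 0 and 6 in the cisplatin kidneys, with 1 of 5 at 0. Trpm6 and Klhl3 were lower by less, at -1.31 and -1.87, and co-treatment gave 0.14 and 0.15 over cisplatin for them, which did not pass.

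The 6 markers of the connecting tubule and principal cell did not fall together. After cisplatin 2 were higher, 2 were lower and 2 did not pass, and with co-treatment against cisplatin 3 were higher and 1 was lower. Aqp2, the water channel of the principal cell and their most abundant gene, was 1.41 higher after cisplatin, and Hsd11b2 was lower at -0.91. Their summed level ran from 429 over 567 to 689 CPM in the vehicle kidneys, from 586 over 671 to 770.2 CPM with KW6002, from 649 over 714 to 929 CPM after cisplatin and from 563 over 862 to 934 CPM after co-treatment. None of the 4 distal convoluted and 6 connecting tubule markers was without a count in all kidneys. The part of a change in cell numbers in the results of the 7 genes was not tested.

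Other nephron and tissue markers moved as well. All 6 proximal tubule markers were lower after cisplatin (median -2.92) and 5 of 6 higher with co-treatment; their summed level ran from 14024 to 15065 CPM in vehicle, 13444 to 14609 with KW6002, 1427 to 2649 after cisplatin and 5315 to 8205 after co-treatment. All 5 thick ascending limb markers were lower (median -1.60) and 4 of 5 higher with co-treatment, summed from 6609 to 10451, 9376 to 11398, 2116 to 2444 and 2616 to 4823 CPM in the same order of groups. Of 5 intercalated cell markers, led by Slc26a4 in the vehicle kidneys and by Atp6v1g3 after cisplatin, 3 were lower after cisplatin and 3 higher with co-treatment, summed from 288 to 338, 261 to 309, 161 to 214 and 231 to 303 CPM. The 4 tubular injury markers, led by Lcn2, were all higher after cisplatin (median 7.97) and all lower with co-treatment than with cisplatin (median -1.88), summed from 7.17 to 9.35, 5.62 to 15.8, 1273 to 2415 and 333 to 733 CPM. The 5 fibroblast markers, led by Dcn in the vehicle kidneys and by Col3a1 after cisplatin, were all higher after cisplatin (median 1.72), and 4 of 5 were lower with co-treatment.

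The remaining marker lists, other than that of T cells, showed smaller or mixed counts after cisplatin. Of 5 podocyte markers 2 were higher and 3 lower, of 5 endothelial markers 2 higher and 1 lower, and of 4 smooth muscle markers 2 higher. Of 5 macrophage markers 1 was higher and 2 lower, and of the 4 T cell markers tested 3 were lower (median -2.08). The T cell markers were at low levels, summed from 3.49 to 6.05 CPM in vehicle and from 1.31 to 2.15 CPM after cisplatin. Of 5 fat markers 1 was lower after cisplatin, and against cisplatin 3 were lower after co-treatment. Of the skeletal muscle markers 1 was tested and was higher after cisplatin, and of the adrenal markers 1 was tested, Star, which did not pass after cisplatin. The adrenal sum of the co-treated kidneys other than replicate 6 ran from 1.75 to 3.13 CPM, and that of the cisplatin kidneys from 1.78 to 2.59 CPM.

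Set against the mean log2 CPM of the 4 distal convoluted tubule markers in the same kidney, the order of the groups changed. The markers' mean was 6.45 ± 0.07 (SD, n = 5) in vehicle, 6.23 ± 0.21 (n = 6) with KW6002, 2.73 ± 0.28 (n = 5) after cisplatin and 3.62 ± 0.31 (n = 6) after co-treatment. The mean is carried by Pvalb and Slc12a3, at log2 fold changes of -7.62 and -4.59 after cisplatin. Casr, Calb1 and Slc8a1 (-3.08, -2.48 and -2.46) fell by more than the markers Klhl3 (-1.87) and Trpm6 (-1.31), and Trpv5 (-1.64) by more than Trpm6, so the order below holds for the mean of the 4 and not for each marker. Relative to the 3 markers other than Pvalb, a set chosen after seeing the data, the difference between cisplatin and vehicle was -0.47 for Casr, 0.07 for Calb1, 0.14 for Slc8a1, 0.94 for Trpv5, 2.26 for S100g, 2.34 for Atp2b1 and 4.64 for Trpv6. The rise of Casr relative to the 4 thus rests on Pvalb, and Calb1 and Slc8a1 then lie near the markers.

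Trpv6 moved most on this scale, from -5.50 ± 0.23 in vehicle to 0.25 ± 0.24 after cisplatin and -0.56 ± 0.26 after co-treatment, on the log2 scale relative to the markers. Trpv5 went from -1.91 ± 0.16 to 0.14 ± 0.29 and 0.94 ± 0.15. Calb1 went from 2.05 ± 0.26 to 3.22 ± 0.39 and 3.97 ± 0.21. All 3 were thus highest in kidneys given cisplatin, and Trpv5 and Calb1 were highest with co-treatment. S100g went from 1.68 ± 0.21 to 5.05 ± 0.35 and 3.80 ± 0.37. Atp2b1 went from 0.18 ± 0.11 to 3.63 ± 0.39 and 3.06 ± 0.34. These members, with small fold changes after cisplatin in the fit of TMM-scaled counts, were highest after cisplatin alone. Slc8a1 went from -1.27 ± 0.15 to -0.01 ± 0.30 and 0.46 ± 0.22. Casr, which is not a gene of the distal convoluted tubule alone, went from -0.36 ± 0.16 to 0.28 ± 0.29 and 0.88 ± 0.44. With the fit scaled in this way the median of all genes moved by 3.74 after cisplatin, by -0.89 with co-treatment against cisplatin, by 2.85 with co-treatment against vehicle, by 0.23 with KW6002 alone and by -1.12 in the difference of the KW6002 effects, so that 99.5% of the 16704 genes past the stricter limit were higher after cisplatin. With co-treatment against cisplatin 3.11% of 7040.0 were higher, against 45.1% of 1766 with TMM, and with co-treatment against vehicle 99.6% of 16636. In the difference of the KW6002 effects 1.62% of 9754 were positive, against 49.5% of 1469.

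**Figure D4:**
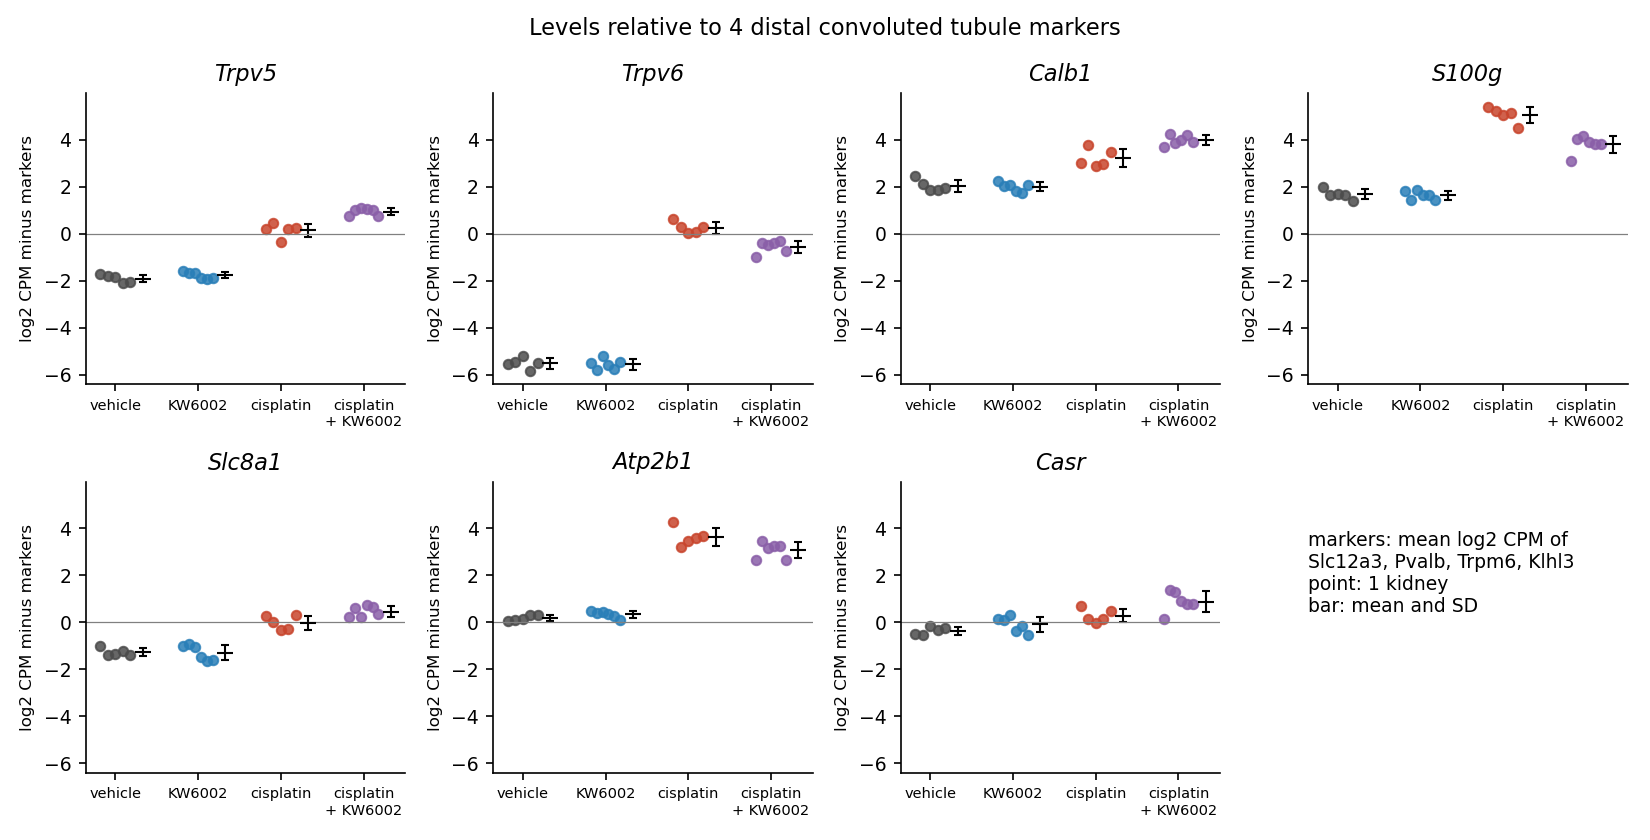
Each point is 1 kidney, as the log2 CPM of a gene minus the mean log2 CPM of Slc12a3, Pvalb, Trpm6 and Klhl3 in that kidney; bars are the mean and SD. On this scale all 7 genes are higher after cisplatin than in vehicle, from -5.50 to 0.25 for Trpv6 and from 1.68 to 5.05 for S100g, whereas in CPM 6 of the 7 are lower. With the fit scaled in this way 99.5% of the 16704 genes past the stricter limit are higher. Without Pvalb, at 0 to 6 counts after cisplatin, Casr is lower by the mean of the other 3 (-0.47).

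Per kilobase of exon, S100g was the most abundant of the 7 in vehicle kidneys, at 589 ± 89.4 CPM per kb (SD, n = 5), followed by Calb1 at 76.0 ± 16.1. Casr came next at 14.5 ± 1.43, and Trpv5 (7.22 ± 0.824) and Atp2b1 (6.56 ± 0.692) did not differ beyond their spread. Slc8a1 (1.95 ± 0.251) and Trpv6 (0.479 ± 0.0619) were lowest. With the longest transcript in place of the joined exons Atp2b1 was at 14.0 and stood above Trpv5. In the KW6002 kidneys the order was the same, from S100g at 490.0 to Trpv6 at 0.399 CPM per kb.

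After cisplatin S100g (467 ± 94.6) and Calb1 (13.6 ± 5.36) stayed highest, and Atp2b1 (5.42 ± 0.6003) came next. Trpv5 (2.31 ± 0.616) and Trpv6 (2.00 ± 0.225) did not differ beyond the spread of Trpv5, Casr (1.71 ± 0.229) followed, and Slc8a1 (0.353 ± 0.0769) was lowest. After co-treatment Trpv5 (7.30 ± 0.934) and Atp2b1 (6.77 ± 0.599) did not differ beyond their spread, above Casr (4.80 ± 0.636), Trpv6 (2.12 ± 0.210) and Slc8a1 (0.906 ± 0.162). These orders depend on the length used. With the longest transcript Atp2b1 was at 14.4 after co-treatment, above Trpv5 at 7.30, and after cisplatin Trpv6 (2.70) was above Trpv5 (2.31). Calb1 stood at 0.128 ± 0.0139 times the level of S100g in vehicle, at 0.0298 ± 0.0127 after cisplatin and at 0.114 ± 0.0226 after co-treatment, per kilobase.

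Genes whose log2 CPM ran most like each member over the 22 kidneys were sought among 10421 tested genes of average log2 CPM of 3 or more. The kidneys share their groups, so r over all kidneys mostly follows the group means, and r of the deviations from the group means is given second. For Calb1 they included Ldhb (0.980 and 0.756) and Tpgs2 (0.973 and 0.781). For Slc8a1 they were Slc44a4 (0.987 and 0.776), Kl (0.986 and 0.725) and Pepd (0.984 and 0.741). For Casr they were Slc16a7 (0.991 and 0.636), Oxct1 (0.990 and 0.306) and Ift122 (0.990 and 0.443). Trpv6, the member that rose, had other genes beside it. They were Inka2 (0.985 and 0.372), Phlda3 (0.985 and 0.485) and Ccng1 (0.985 and 0.392). For Trpv5 they were Rsph9 (0.966 and 0.629), Acmsd (0.962 and 0.482) and Asb13 (0.960 and 0.392). Over all kidneys r was lower for the genes most like the remaining members, while r within groups was not lower throughout. For Atp2b1 they were Tpr (0.875 and 0.780), Otud6b (0.856 and 0.713) and Nol8 (0.847 and 0.723), and for S100g Gjb2 (0.851 and 0.696), Prdx2 (0.850 and 0.588) and Paip2 (0.847 and 0.585).

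Among the members themselves, Calb1 and Slc8a1 ran together with r of 0.970 over the 22 kidneys and 0.693 within groups, and Calb1 and Trpv5 with 0.922 and 0.856. Trpv5 and Trpv6 ran against each other over all kidneys (-0.437) but together within groups (0.522). Casr ran with Slc8a1 over all kidneys (0.958) and not within groups (0.041).

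The directions of the marker lists above and the gene lists below are those with TMM, since with scaling to the distal convoluted tubule markers nearly all genes are higher after cisplatin. Klotho and other genes known to act on TRPV5 or distal transport split in direction. Of 14 genes listed 13 were tested, and Fgf23 was not; after cisplatin 5 were higher, 6 lower and 2 did not pass (median -0.12, against -0.01 for all genes tested). Kl, which encodes klotho, was lower at -3.02 and so was Klk1, tissue kallikrein, at -2.28 and Umod, uromodulin, at -1.53. S100a10 and Anxa2, which encode a pair of proteins that bind TRPV5 at the membrane, were higher at 2.74 and 2.11, and Sgk1, a kinase induced by mineralocorticoids, at 1.75. With co-treatment against cisplatin 5 were higher, 4 lower and 4 did not pass (median 0.11). Kl was then 1.58 higher, Klk1 0.79 and Stc1, stanniocalcin, 0.71, while S100a10 was at -1.39, Anxa2 at -1.07 and Rab11a at -0.12.

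Of 8 genes for hormone receptors, their signalling and vitamin D enzymes, 1 was higher after cisplatin, 3 lower and 4 did not pass (median -0.06). Pth1r, the parathyroid hormone receptor, was at -1.84, the oestrogen receptor Esr1 at -1.44 and the vitamin D degrading enzyme Cyp24a1 at -0.98, and Gna11 was at 0.65. With co-treatment against cisplatin 2 were higher, 3 lower and 3 did not pass (median 0.05). Cyp27b1, which makes active vitamin D, was higher by 2.44 and Cyp24a1 by 1.74, while Rgs14 was at -0.67, the vitamin D receptor Vdr at -0.54 and Gna11 at -0.30. Cyp27b1 stood at 80.5 CPM on average after co-treatment, against 14.9 after cisplatin and 12.5 in vehicle. Vdr after cisplatin was at -0.04 and did not pass.

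Of 10 genes for the passage of calcium between cells in the thick ascending limb and proximal tubule, 1 was higher after cisplatin, 8 lower and 1 did not pass (median -1.20). The potassium channel Kcnj1 and the transporter Slc12a1 were both at -1.60 and Bsnd at -1.31, while Cldn19 was at 0.61. With co-treatment against cisplatin 5 were higher and 5 did not pass (median 0.76), with Slc12a1 at 1.54, Cldn16 at 1.44 and Kcnj1 at 1.01.

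Of 12 close relatives of the 7 genes, 11 had a count and 7 were tested, and after cisplatin 2 were higher, 4 lower and 1 did not pass (median -0.26). Pvalb, parvalbumin, was at -7.62, and the calcium pumps Atp2b2 and Atp2b4 at -2.40 and -0.84, while Trpv2 was at 1.35 and Slc8a2 at 1.06. With co-treatment against cisplatin 3 were higher, 1 lower and 3 did not pass (median 0.11): Pvalb was at 1.82, Atp2b2 at 1.12, Atp2b4 at 0.21 and Trpv2 at -1.41. Gprc6a was not in the table, and Calb2, Trpv1, Slc8a3 and Atp2b3 had too few counts to be tested.

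Of 12 genes of the intracellular calcium stores, 5 were higher after cisplatin, 5 lower and 2 did not pass (median -0.07). Itpr3, Stim1 and Stim2 were at 1.30, 0.72 and 0.45, and Ryr2, Itpr2 and Calr at -4.41, -0.79 and -0.65. With co-treatment against cisplatin 2 were higher, 3 lower and 7 did not pass (median 0.02): Orai1 was at 0.25 and Atp2c1 at 0.14, and Itpr3 at -0.37, Stim1 at -0.36 and Canx at -0.27. The 7 transport genes, with medians of -1.64 and 1.36, thus lay farther from the median of all genes than this list, as a description without a test.

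**Figure D5:**
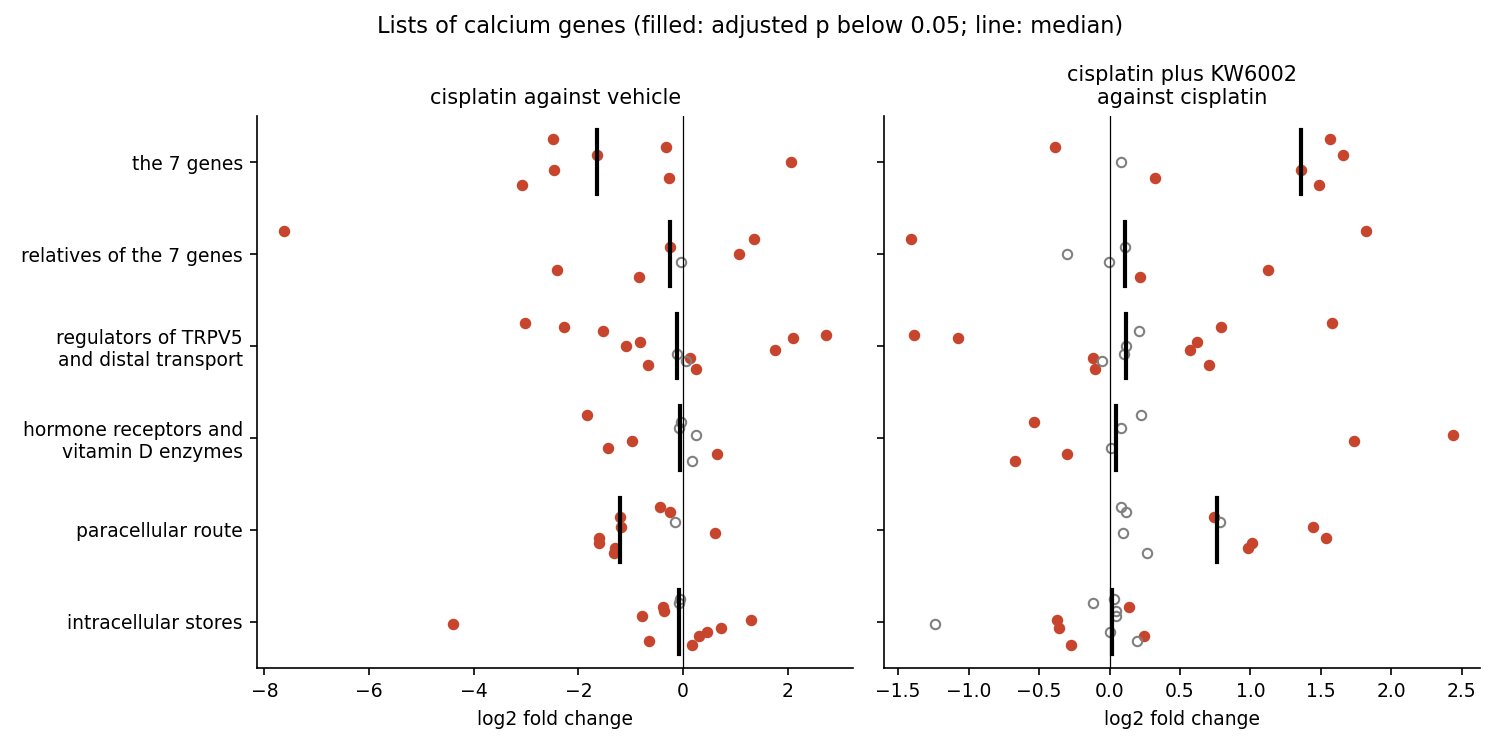
Each point is the log2 fold change of 1 gene, filled at an adjusted p below 0.05, and each line the median of its list. After cisplatin the medians are -1.64 for the 7 genes and -1.20 for the paracellular route, and between -0.26 and -0.06 for the other 4 lists. Scaled to the 4 distal convoluted tubule markers all 7 genes are higher, as are 99.5% of the 16704 genes past the stricter limit. Without Pvalb among the markers Casr is lower.

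The genes' positions in GRCm38 are chromosome 4 from 15881264 to 15908064 for Calb1 (ENSMUSG00000028222) and chromosome X from 162961992 to 162964599 for S100g (ENSMUSG00000040808). Trpv5 (ENSMUSG00000036899) spans 41652173 to 41680769 and Trpv6 (ENSMUSG00000029868) 41620624 to 41636405 on chromosome 6. Slc8a1 (ENSMUSG00000054640) lies on chromosome 17 from 81373105 to 81738377. Atp2b1 (ENSMUSG00000019943) lies on chromosome 10 from 98914406 to 99026143. Casr (ENSMUSG00000051980) lies on chromosome 16 from 36493696 to 36562141. No stretch of 50 bases was shared between any transcript of Calb1, S100g, Trpv5, Trpv6 or Casr and that of another annotated gene, Trpv5 and Trpv6 with each other included. Of the 50-base stretches of Slc8a1 1.33% and of Atp2b1 1.27% occur in other genes. S100g lies across Ctps2 without an exon overlap, on the other strand, with medians of 7155 and 1450.0 counts. Slc8a1 shares exon bases with AC122399.1 and Gm11096 on the other strand, with medians of 0 counts each. The libraries were made with a stranded kit, but whether the counting used strand is not given in the sources used here. Reads of such partners therefore cannot be told apart.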

How the data were processed

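RNA was sequenced from 22 mouse kidneys, and the deposited count of each gene was made by the authors with bcl2fastq 2.17.1.14, STAR and HTSeq 0.6.1p1 on mm10, as their processing notes say. The table holds 32858 genes, 22 libraries and 66 unnamed empty columns, which were not used. Counts were scaled by TMM (factors 0.925 to 1.12) and fitted for all 4 groups together with edgeR 4.0.16 (quasi-likelihood F test) in R 4.3.3, after filterByExpr with a minimum count of 10, which left 17131 genes and 99.9% of counts. Median depth was 32721214.5 counts, and the common dispersion was 0.01675. P-values were adjusted by Benjamini and Hochberg over all genes tested. Single genes were judged at an adjusted p under 0.05, and the stricter limit asks for a log2 fold change past 1 or -1 together with an adjusted p under 0.01.

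Alternatives were DESeq2 1.42.0, RLE factors, library size alone, scaling to 4 distal convoluted tubule markers, other filters, only the groups compared, a replicate block, the mouse number series and each library left out. The procedure was tested on simulated data. Members and lists were chosen with earlier results of these data known. Named genes are the 7 members, the 3 genes most like each (1 of those for Calb1 is not reported here), and in each list up to 3 genes per direction with the largest change at an adjusted p below 0.05 in cisplatin against vehicle and in cisplatin plus KW6002 against cisplatin. Marker genes are named with their levels. The lists are relatives of the members, regulators of TRPV5, calcium hormones, the paracellular route, calcium stores and cell type markers. Exon lengths, positions and overlaps came from GENCODE M21, and promoters from RefSeq. Tables and figures used Python 3.11.15, pandas 2.3.3, numpy 2.4.6 and matplotlib 3.10.9.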

Additional observations from a re-analysis of the deposited data

Results flagged for a closer look

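The KW6002 effect differed with and without cisplatin, by a test of the difference itself, for 5 of the 7 genes, all positive, where 22.8% of all genes tested were positive and 19.9% negative. The log2 difference was 1.85 for Calb1, 1.74 for Trpv5, 1.61 for Slc8a1, 1.44 for Casr and 0.39 for Atp2b1. With scaling to the distal convoluted tubule markers the values for Slc8a1 (0.46) and Casr (0.32) no longer passed, those for Calb1 (0.76) and Trpv5 (0.63) were smaller and passed, and that of Atp2b1 turned to -0.75, where the median of all genes was -1.12. The vehicle and KW6002 groups hold mice of the 300s and the 500s, and within the 500s the differences were 1.63 for Calb1, 1.54 for Trpv5, 1.70 for Slc8a1, 1.64 for Casr and 0.46 for Atp2b1. Within the 28 groups of values, 7 genes in 4 groups, 0 kidneys stood far enough from the others to pass Dixon's limit.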

How the results depend on the processing

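Of 343 log2 fold changes of members under other settings 312 kept their direction and side of the limit, and so did 760.0 of 770.0 with each library left out in turn. All 28 mean levels moved by less than 1 SD with library size alone, and 10 of 28 levels per kilobase moved by more with the longest transcript. For the changes below the cause was not tested, unless the setting's own construction shows it.

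Scaling to the 4 distal convoluted tubule markers, which themselves fell after cisplatin, turned cisplatin against vehicle to 1.21 for Calb1, 3.41 for S100g, 2.07 for Trpv5, 1.27 for Slc8a1, 3.50 for Atp2b1 and 0.66 for Casr, with 7 members higher and 0 lower in edgeR. Co-treatment against cisplatin gave -0.82 for Trpv6 and -0.59 for Atp2b1, with 3 members lower. Co-treatment against vehicle gave 1.92 for Calb1, 2.14 for S100g, 2.85 for Trpv5, 1.73 for Slc8a1, 2.91 for Atp2b1 and 1.28 for Casr, with 7 higher and 0 lower. KW6002 alone gave 0.14 for Trpv5 and 0.16 for Atp2b1. The difference of the KW6002 effects was -1.22 for S100g, -0.76 for Trpv6, 0.46 for Slc8a1, -0.75 for Atp2b1 and 0.32 for Casr, with 2 members higher and 3 lower. Genes past the stricter limit numbered 16704, 7040.0, 16636, 6 and 9754 in the order of the comparisons above. Of these, 99.5%, 3.11%, 99.6%, 100% and 1.62% were higher, in the same order.

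Relative to the 3 markers other than Pvalb, added after seeing the data, the difference of cisplatin and vehicle was 0.0654 for Calb1, 2.26 for S100g, 0.94 for Trpv5, 4.64 for Trpv6, 0.14 for Slc8a1, 2.34 for Atp2b1 and, reversed, -0.47 for Casr, since Pvalb had 0 to 6 counts after cisplatin. Between co-treatment and vehicle it was 0.98 for Calb1, 1.17 for S100g, 1.90 for Trpv5, 3.998 for Trpv6, 0.77 for Slc8a1, 1.93 for Atp2b1 and 0.29 for Casr, and between co-treatment and cisplatin 0.96 for Trpv5; the other 6 differences between co-treatment and cisplatin moved by less than 1 SD.

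Library size alone gave -0.12 for S100g and -0.055 for Atp2b1 after cisplatin, and 0.21 for Atp2b1 after co-treatment against vehicle, where 2 members were then higher. With only the groups compared S100g after cisplatin was -0.33 (adjusted p = 0.0547). The mice of the 500s gave -0.22 for S100g after cisplatin, -0.11 for Atp2b1 after co-treatment against vehicle, and for KW6002 alone 0.13 for Trpv5, -0.15 for Casr and 1 gene past the stricter limit. With the label series as a covariate Atp2b1 was -0.0796 after co-treatment against vehicle, and 4 genes passed for KW6002 alone, as many as in DESeq2.

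The replicate block gave -0.0058 for Trpv5 after co-treatment against vehicle, and 4105, 1715, 2296, 0 and 1460.0 genes past the stricter limit, and it changed no call of a member. Over 31 pairs of samples with the same replicate number, deviations from the group means correlated from -0.175 to 0.405 (median 0.00846), with 7 pairs over 0.1. Of these 4 are among the 5 pairs of vehicle and KW6002 (0.405, 0.132, 0.155 and 0.194), where equal numbers also share the label series. Since not every pair was over 0.1, no pairing was used.

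Testing against a log2 fold change of 1 (glmTreat) left 2393, 481, 899 and 261 genes in the comparisons other than KW6002 alone, where 0 passed, with 1930.0 at an unadjusted p below 0.05 and 4 in DESeq2. An adjusted p below 0.05 alone gave 12085, 9564, 10222, 3 and 7312. A mean CPM of at least 1 left 1512 genes for co-treatment against vehicle, since fewer genes were tested. The settings for the gene counts, other than glmTreat and the adjusted p alone, were chosen after seeing the data.

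With 1 library left out, S100g ran from -0.43 to -0.24 after cisplatin, past the limit no longer without vehicle replicate 1, cisplatin replicate 1 or cisplatin replicate 5. S100g ran from -0.48 to -0.29 for co-treatment against cisplatin, and without cisplatin replicate 2 (-0.29) the members lower went from 1 to 0. Trpv5 ran from -0.0434 to 0.0736 for co-treatment against vehicle, below 0 without vehicle replicate 3, 4 or 5 or co-treated replicate 1 or 6. Casr ran from -0.0025 to 0.0915 for KW6002 alone, lowest without KW6002 replicate 3. Genes past the stricter limit for KW6002 alone ran from 0 to 2, with 2 without vehicle replicate 3 and 1 without vehicle replicate 5.

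Trpv6 had 41 to 63 counts in kidneys without cisplatin, so its levels there are the least precise of the 7. The groups hold 5 or 6 mice and 1 time point.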
